A study of Mus musculus with 12 samples.

Results

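Toll-like receptors are the sensors by which myeloid cells recognise microbial lipids, lipoproteins and nucleic acids, and 10 genes of this system were examined in monocytic myeloid-derived suppressor cells (M-MDSCs) of bone marrow from mice of different age. They were the receptors of the cell surface Tlr1, Tlr2, Tlr4 and Tlr6 with the co-receptor Cd14, the receptors of endosomes Tlr7, Tlr8 and Tlr13, and the signalling adaptors Myd88 and Ticam1. They were taken from the table by gene symbol, with earlier results of these data known, and all 10 were found among the 23420 genes of the deposited table and passed the filter on low counts. M-MDSCs are immature myeloid cells of the monocyte lineage that restrain T cells and can become osteoclasts. They were sorted as CD11b+Ly6G-Ly6Chi cells from 6 young mice aged 6 months and 6 aged mice aged 24 months. All mice were C57BL/6JNIA males, no treatment or engineered allele is named in the labels, and 1 stranded RNA library was sequenced for each mouse.

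Toll-like receptors bind their ligands through leucine-rich repeats and signal through a cytoplasmic TIR domain. TLR2 pairs with TLR1 or TLR6 to bind bacterial lipopeptides, whereas TLR4 binds lipopolysaccharide that CD14 hands over. TLR7 and TLR8 lie in endosomes and bind single-stranded RNA or its breakdown products, and TLR13, which mice have and humans lack, binds a sequence of bacterial ribosomal RNA. All of these receptors recruit MYD88, which leads to NF-kB and inflammatory cytokines. TLR4 also signals through TICAM1 (TRIF), which leads to type I interferon. The receptors tell a phagocyte of infection, and in cells of the osteoclast lineage their signals are known to alter osteoclast formation.

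In aged mice, 4 of the 10 genes were called higher, Tlr1, Cd14, Myd88 and Tlr6, and 1 was called lower, Tlr8. A gene was called where the adjusted p-value of edgeR's quasi-likelihood test was under 0.05. Of all 9742 genes tested, 22.4% were called higher and 23.0% lower, so that the count of the 10 genes in either direction was near the background of 45.4%. The differences were unequal in size. Tlr1 was 4.56-fold higher and Cd14 2.16-fold higher in aged mice, whereas Myd88 and Tlr6 each differed by 1.38-fold and Tlr8 was 1.24-fold lower. The median log2 fold change of the 10 genes was 0.24 beside 0.01 for all genes tested.

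Between 8737941 and 16300374 fragments were counted per aged library, and between 4613239 and 9079237 per young library. Genes of the sort were expressed, with a summed level of 9 classical monocyte markers of 7816 to 9907 CPM in the aged and 8631 to 9823 CPM in the young group. CPM is the count of a gene scaled by the total of its library. Among them Ly6c2, which encodes the Ly6C of the sort, had a mean of 727 CPM in the aged and 500.3 CPM in the young group, and the monocyte receptor Ccr2 of 31.2 and 37.1 CPM. The summed level of 10 neutrophil markers was 89145 to 106360 CPM in the aged and 69370 to 94722 CPM in the young group, in cells that were sorted as Ly6G-. The summed level of 11 resident macrophage markers was 89.2 to 1130 CPM in the aged and 76.5 to 95.6 CPM in the young group. It was highest in aged mouse 1 with 1130 CPM, followed by aged mouse 2 with 374 CPM, and 9 of its 9 tested genes were called higher in aged mice. Young mice 5 and 6 had the highest summed level of 8 proliferation markers, at 1352 and 1315 CPM. A lower level of a gene can come from fewer cells of a type or from less RNA in each cell, which bulk RNA cannot tell apart. The table's headers carry a running sample number, 11 to 16 for the young and 17 to 26 for the aged libraries, so that age and this order cannot be told apart.

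Of the 10 genes, 7 had a promoter in the RefSeq table for the build GRCm38.p6, with 9 entries of 300 bases that run from 250 bases before to 50 bases after a start site. The promoters of the genes called in the test are shown, because they are the genes that moved with age, except that of Cd14, for which the table has no entry. Where a gene had 2 entries, the one nearest to the start of the counted gene is shown. Both strands were searched for 4 motifs, with N for any base. They were GAGGAA, the core of sites that PU.1 binds, TGANTCA, the AP-1 motif, an interferon response motif of GAAA, any 2 bases and GAAA, and an NF-kB motif of GGGAA, any 2 bases and CCC. Capitals mark a match, of which the Tlr6 entry shown has none, and each sequence is given 5′ to 3′ on the strand of the gene.
Tlr1, chr5:64933509-64933808, minus strand: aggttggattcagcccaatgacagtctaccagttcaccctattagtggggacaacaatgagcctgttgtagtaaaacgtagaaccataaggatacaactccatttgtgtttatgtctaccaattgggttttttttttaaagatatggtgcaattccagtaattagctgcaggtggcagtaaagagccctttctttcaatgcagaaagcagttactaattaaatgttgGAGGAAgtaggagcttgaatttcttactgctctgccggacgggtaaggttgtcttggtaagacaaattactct
Tlr6, chr5:64959999-64960298, minus strand: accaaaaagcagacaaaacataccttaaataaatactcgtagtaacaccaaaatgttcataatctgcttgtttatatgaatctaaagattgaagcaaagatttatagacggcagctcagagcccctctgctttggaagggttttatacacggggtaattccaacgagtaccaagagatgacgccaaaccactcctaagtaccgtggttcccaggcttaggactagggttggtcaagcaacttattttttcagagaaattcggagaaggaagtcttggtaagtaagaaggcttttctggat
Myd88, chr9:119339969-119340268, minus strand: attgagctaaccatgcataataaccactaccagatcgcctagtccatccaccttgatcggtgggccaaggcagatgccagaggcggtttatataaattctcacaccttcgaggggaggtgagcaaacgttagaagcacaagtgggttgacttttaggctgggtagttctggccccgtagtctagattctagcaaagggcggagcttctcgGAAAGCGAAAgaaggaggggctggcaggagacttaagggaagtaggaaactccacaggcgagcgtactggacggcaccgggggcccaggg
Tlr8, chrX:167264280-167264579, minus strand: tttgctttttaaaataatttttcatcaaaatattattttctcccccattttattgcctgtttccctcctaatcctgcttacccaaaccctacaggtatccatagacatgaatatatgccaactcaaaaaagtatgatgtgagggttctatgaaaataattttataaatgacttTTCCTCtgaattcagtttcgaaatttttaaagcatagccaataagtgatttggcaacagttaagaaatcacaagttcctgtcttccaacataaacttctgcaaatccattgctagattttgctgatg

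GAGGAA began 23 bases before the start site of Tlr1 and, on the opposite strand, 77 bases before that of Tlr8. It was present in 4 of the 9 entries and in 28.3% of the 32851 promoters of the table. The interferon response motif was present in 2 of 9 entries and in 3.44% of all promoters. One was that of Myd88 and the other the Tlr6 entry not shown, whose start site lies 868 bases inside the counted gene and in which it occurred 2 times, as overlapping matches on the opposite strand. The NF-kB motif was found in 1 of the 9 entries, that of Tlr2, and in 1.75% of all promoters, and TGANTCA in 0 of 9 and in 7.81%. No match in these windows says only that the letters are not there, and a match is not a bound site. The RefSeq start site shown is that of the counted gene for Tlr1, and lies 14 bases before it for Tlr6, 541 bases before it for Tlr8 and 22 bases inside it for Myd88. The Tlr1 entry not shown starts 859 bases inside the gene and had no match. Tlr4, Tlr7 and Cd14 had no entry.

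Tlr1 and Tlr6 are neighbours on chromosome 5 and share long stretches of coding sequence, which bears on how their fragments could be assigned. Their longest identical coding stretch had 229 bases and is shown in capitals, with 25 bases of each gene on either side in lower case, from the GENCODE transcripts on GRCm38.
Tlr1, chr5:64925512-64925790, minus strand: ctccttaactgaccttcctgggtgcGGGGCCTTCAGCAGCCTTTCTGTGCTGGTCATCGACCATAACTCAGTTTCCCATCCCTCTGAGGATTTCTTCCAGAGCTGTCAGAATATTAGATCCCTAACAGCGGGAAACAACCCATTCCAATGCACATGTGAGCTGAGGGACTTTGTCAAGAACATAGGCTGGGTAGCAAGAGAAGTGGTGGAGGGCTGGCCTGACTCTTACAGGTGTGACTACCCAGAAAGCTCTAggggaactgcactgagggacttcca
Tlr6, chr5:64953803-64954081, minus strand: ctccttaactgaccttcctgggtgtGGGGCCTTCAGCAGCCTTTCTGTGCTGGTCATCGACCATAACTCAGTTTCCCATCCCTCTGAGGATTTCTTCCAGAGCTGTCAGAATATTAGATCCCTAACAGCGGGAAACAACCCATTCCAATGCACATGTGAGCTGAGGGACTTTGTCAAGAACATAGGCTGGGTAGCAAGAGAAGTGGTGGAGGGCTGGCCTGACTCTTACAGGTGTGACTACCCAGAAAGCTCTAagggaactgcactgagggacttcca

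Of all windows of 100 bases in the 2385 coding bases of Tlr1, 11.3% occurred unchanged in Tlr6. The authors counted fragments of a mapping quality of at least 60 only. A fragment that lies wholly inside such a stretch has 2 equal places in the genome. How many fragments of either gene this minimum left out was not tested.

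TLR1 and TLR6 are the partners of TLR2, and both partner genes were called higher in aged mice while Tlr2 was not called. Tlr1 (chr5:64924680-64933558, minus strand, mm10) had a level of 1.99 CPM in the lowest, 3.45 in the median and 7.08 in the highest aged mouse. In young mice the lowest level was 0.391, the median 0.875 and the highest 1.32 CPM. The ages did not overlap, and aged mice 7 and 1, at 7.08 and 6.69 CPM, stood above the other aged mice, which lay between 1.99 and 3.51 CPM. The mean was 4.18 ± 2.17 CPM in aged and 0.866 ± 0.343 CPM in young mice (SD, n = 6 each). The log2 fold change was 2.19 with a standard error (SE) of 0.37 and an adjusted p of 0.00039, and 33 of the 9742 genes tested had a larger log2 fold change. This rested on few fragments, 21 to 113 per aged and 2 to 13 per young library. Without aged mice 1 and 7 the log2 fold change was 1.61, with an adjusted p of 0.0009 by edgeR.

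Tlr6 (chr5:64953095-64960034, minus strand) was more abundant than Tlr1 and changed less. It lay at 21.3 CPM in the lowest, 27.2 in the median and 35.6 in the highest aged mouse, against 14, 20.9 and 25.3 CPM in young mice. The ages overlapped, since aged mice 1 and 7, the highest for Tlr1, were the lowest aged mice for Tlr6, at 21.3 and 21.7 CPM. Tlr6 was higher by 0.46 ± 0.17 on the log2 scale (SE, n = 6 each) with an adjusted p of 0.035 by edgeR. This call was lost in 12 of 26 alternatives. Without young mice 5 and 6, whose 14 and 16.5 CPM were the lowest young values, the log2 fold change was 0.26 and the adjusted p 0.22 by edgeR.

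Tlr2 (chr3:83836272-83841608, minus strand), the common partner, had a level of 115 CPM in the lowest, 138 in the median and 163 in the highest aged mouse. In young mice these values were 108, 168 and 194 CPM. All aged values lay inside the young range. Its log2 fold change of -0.21 was not called (adjusted p = 0.21), with a 95% interval from -0.48 to 0.07. Young mice 5 and 6 were again the lowest of the young, at 108 and 130.5 CPM. Without these mice Tlr2 was called lower in aged mice, with a log2 fold change of -0.40 and an adjusted p of 0.0037 by edgeR. It was also called lower without young mouse 5 alone (-0.30, adjusted p = 0.039, edgeR) and without TMM factors (-0.29, adjusted p = 0.042, edgeR).

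Of the lipopolysaccharide receptor, the co-receptor gene Cd14 rose and Tlr4 was not called. Cd14, on chromosome 18, encodes the protein that carries lipopolysaccharide to TLR4 and MD-2. Its level was 11.4 CPM in the lowest, 14.1 in the median and 15.1 in the highest aged mouse. In young mice it was 3.69, 5.76 and 8.96 CPM. No aged mouse reached down to the young range, and the aged mice varied little, with a mean of 13.7 ± 1.24 CPM beside 6.26 ± 2.02 in young mice (SD, n = 6 each). The log2 fold change was 1.11 ± 0.18 (SE) with an adjusted p of 0.00025, and 166 of the genes tested had a larger one. Cd14 and Tlr1 were the 2 genes of the 10 with no overlap between the ages, both higher in aged mice. Of all genes tested, 9.68% were so in that direction and 21.8% in either.

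Tlr4 (chr4:66827811-66842796, plus strand) had a level of 114 CPM in the lowest, 129.6 in the median and 144 in the highest aged mouse, and of 83.7, 124 and 132 CPM in young mice. The 2 lowest values were those of young mice 5 and 6, and the others of both ages lay between 114 and 144 CPM. Its log2 fold change of 0.17 was not called (adjusted p = 0.21), with a 95% interval from -0.06 to 0.39. Without young mice 5 and 6 it was 0.01. Ly96, which encodes MD-2, the subunit of TLR4 that binds the lipid, was not called either, at 5.37 ± 0.84 CPM in aged and 4.96 ± 1.62 CPM in young mice, with a log2 fold change of 0.15 (SE 0.21).

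**Figure D1:**
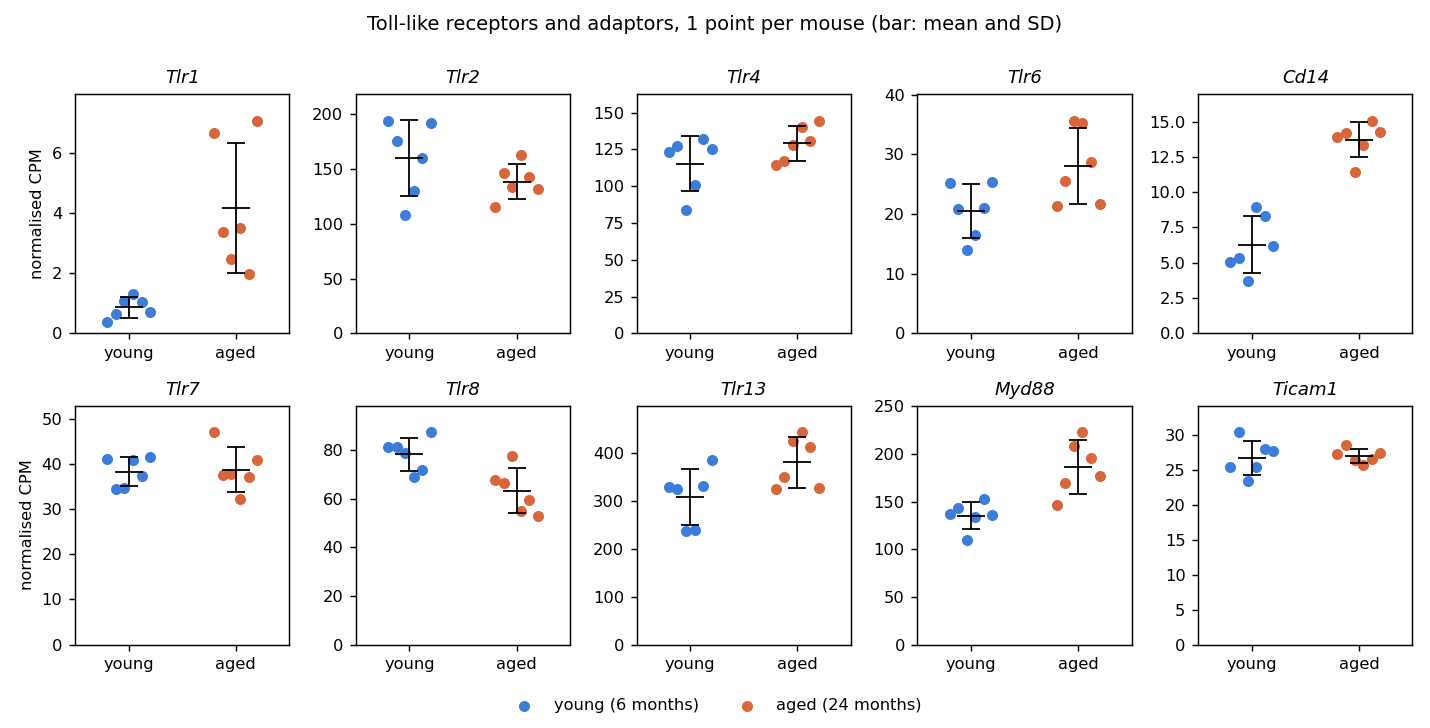
Normalised CPM of the 10 genes in each mouse, on a linear axis from 0, with young mice in blue and aged mice in orange, the long bar at the mean and the caps at 1 SD (n = 6 each). The ages separate for Tlr1 and Cd14, and overlap for the other 8 genes.

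Among the nucleic acid sensors of endosomes, Tlr8 fell, Tlr7 had a nearly equal mean level at both ages and Tlr13 had a higher mean that missed the threshold. Tlr8 (chrX:167242732-167263788, minus strand) had a level of 52.8 CPM in the lowest, 63.0 in the median and 77.5 in the highest aged mouse. In young mice it was 69.1, 79.9 and 87.3 CPM. 5 of the 6 aged mice lay below every young mouse, and aged mouse 4, at 77.5 CPM, lay inside the young range. The difference was -0.31 ± 0.09 in log2 (SE, n = 6 each) with an adjusted p of 0.016 by edgeR.

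Tlr7 (chrX:167304931-167330528, minus strand), the neighbour of Tlr8 on the X chromosome, had a level of 32.3, 37.7 and 47.2 CPM in the lowest, median and highest aged mouse and of 34.5, 39.1 and 41.5 CPM in young mice. Aged mouse 1 was the highest and aged mouse 5 the lowest of all 12 mice. The log2 fold change was 0.02, with a 95% interval from -0.18 to 0.21 and an adjusted p of 0.90, so that a change beyond this interval was not seen. Its sign turned in several alternatives.

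Tlr13 (chrX:106143275-106160493, plus strand) had the highest CPM of the 10 genes. It lay at 325 CPM in the lowest, 381 in the median and 444 in the highest aged mouse and at 237, 327 and 385 CPM in young mice. Aged mice 4, 5 and 6 lay above every young mouse, and young mice 5 and 6, at 237 and 239.7 CPM, below every other mouse. The log2 fold change was 0.31 ± 0.12 (SE, n = 6 each) with an adjusted p of 0.055, just outside the threshold. It was called in 9 of 26 alternatives, among them upper quartile factors (adjusted p = 0.031, edgeR), a minimum of 10 counts in every mouse (0.042), without aged mouse 1 (0.039), aged mouse 7 (0.033) or young mouse 10 (0.019), and without aged mice 1 and 7, with a log2 fold change of 0.41 (0.017). Without young mice 5 and 6 it was 0.13 with an adjusted p of 0.32 by edgeR.

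The adaptor gene Myd88 rose and Ticam1 was not called. Myd88 (chr9:119335988-119340040, minus strand), which encodes the adaptor of all the receptors above, had a level of 146, 186 and 223 CPM in the lowest, median and highest aged mouse and of 109, 136 and 152 CPM in young mice. 5 of the 6 aged mice lay above every young mouse, and aged mouse 1, at 146 CPM, was the exception. Myd88 rose by 0.46 ± 0.10 on the log2 scale (SE, n = 6 each) with an adjusted p of 0.0021 by edgeR. Without aged mice 1 and 2 it was 0.58, and with a correction for gene length 0.34, and the call held in both.

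Ticam1 (chr17:56269462-56276767, minus strand), which encodes TRIF, lay at 25.8, 27.0 and 28.6 CPM in the lowest, median and highest aged mouse and at 23.4, 26.6 and 30.4 CPM in young mice. The aged values all lay inside the young range. The log2 fold change was 0.02, with a 95% interval from -0.14 to 0.18 and an adjusted p of 0.87 by edgeR. Of the 10 genes, Ticam1 and Tlr7 had the log2 fold changes nearest to 0.

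**Figure D2:**
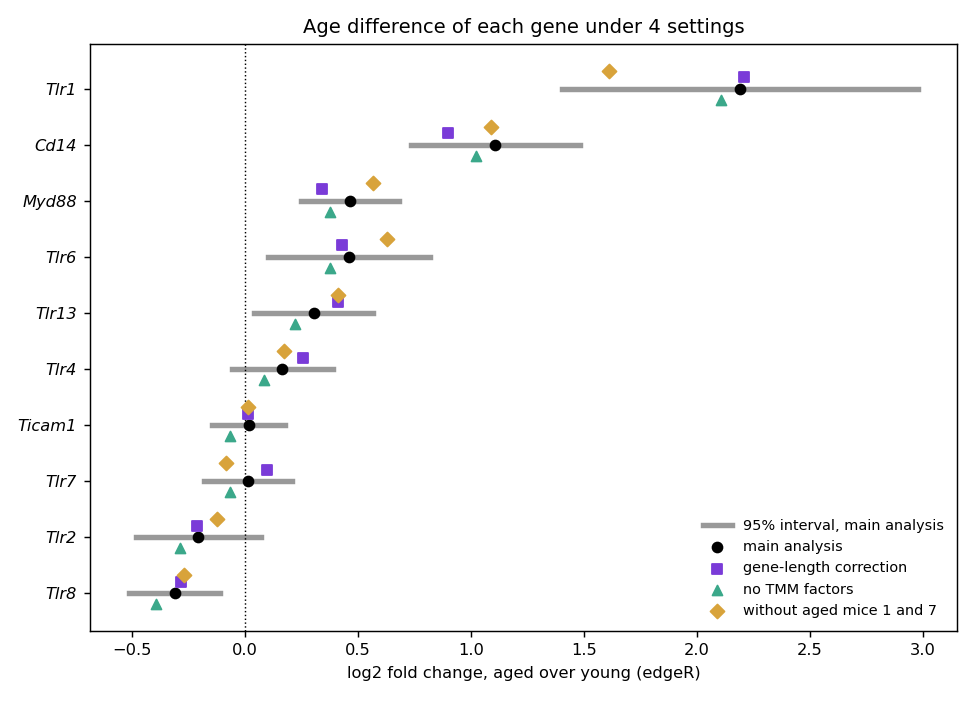
Log2 fold change of each gene, aged over young, on the horizontal axis, with the 95% interval of the edgeR fit as a grey bar and the value under 3 alternatives as coloured symbols. Tlr1 at 2.19 and Cd14 at 1.11 lie far from the others, Tlr8 lies below 0 under each setting drawn, and Tlr7 and Ticam1 lie on either side of 0.

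Per exon length, the order of the genes was nearly the same at both ages. Levels between genes are compared here as CPM per kb of exon. Tlr13 and Myd88 were the highest, at 94.8 ± 13.2 and 97.9 ± 14.7 CPM per kb in aged and 76.7 ± 14.5 and 71.0 ± 7.51 in young mice (SD, n = 6 each). These 2 genes did not differ beyond their spread at either age. Tlr2 came next, at 48.6 ± 5.63 CPM per kb in aged and 56.1 ± 12.1 in young mice, then Tlr4, at 33.6 ± 3.13 and 30 ± 4.92, and Tlr8, at 20 ± 2.93 and 24.8 ± 2.12. Tlr2 lay above Tlr4 by more than the SD of either at both ages, whereas the ranges of mean ± SD of Tlr4 and Tlr8 overlapped in young mice.

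Tlr7, Ticam1 and Tlr6 formed a group around 10.4, 9.54 and 10.8 CPM per kb in aged mice, in which neighbours did not differ beyond their SD. In young mice the levels of Tlr7 and Ticam1 were 10.3 and 9.45 CPM per kb, and Tlr6 was at 7.88 ± 1.75. Cd14 joined this group in aged mice, at 9.16 ± 0.83 CPM per kb, and lay below it in young mice, at 4.18 ± 1.35. Tlr1 was the lowest at both ages, at 1.37 ± 0.71 and 0.283 ± 0.112 CPM per kb.

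**Figure D3:**
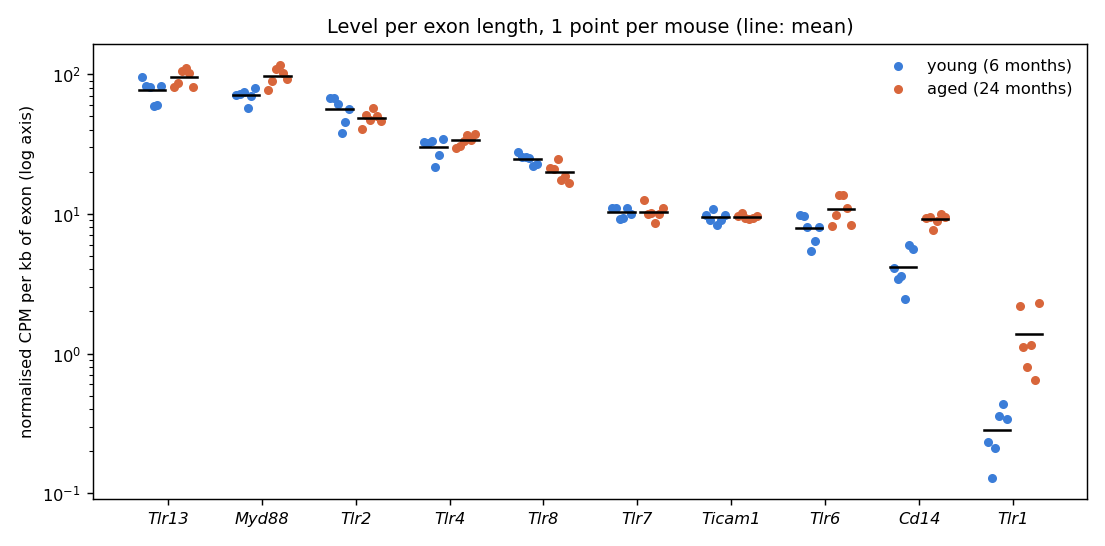
Level of each gene in CPM per kb of exon, on a log axis, with 1 point per mouse and a line at the mean of each age (n = 6 each). The genes are ordered by their mean over all mice, from Tlr13 and Myd88 near 71.0 to 97.9 CPM per kb down to Tlr1 at 0.283 in young and 1.37 in aged mice.

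The ratio of 2 genes in the same library does not depend on the scaling of that library. It can still carry an effect of gene length, since the genes of a pair differ in length. In all, 5 ratios of partner or neighbour genes were compared. All 5 differed between the ages by a two-sided exact permutation test over the 12 mice, with p-values adjusted over the 5 ratios, for which the smallest possible raw p is 0.0022. In the median aged mouse 11.6 fragments of Tlr1 were counted per 100 of Tlr6, and in the median young mouse 4.02, and the log2 ratio differed by 1.65 (adjusted p = 0.016). The log2 ratios have 0.5 counts added to each gene, and with 5 counts added the difference of Tlr1 to Tlr6 was 1.02 (adjusted p = 0.032, exact permutation test), Tlr1 having 2 to 13 counts per young library. For Cd14 the numbers were 10.7 and 4.66 per 100 of Tlr4, with a difference of 1.0 in log2 (adjusted p = 0.011), and this was the ratio in which the ages did not overlap. The co-receptor rose relative to its receptor, and Tlr1 relative to Tlr6.

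Tlr2 fell relative to Tlr4, from 134 fragments per 100 of Tlr4 in the median young mouse to 106 in the median aged mouse, with a difference of -0.36 in log2 (adjusted p = 0.011, exact permutation test). Neither gene was called alone. Tlr7 rose relative to its neighbour Tlr8, from 49.2 to 60.6 fragments per 100, with a difference of 0.33 (adjusted p = 0.026, exact permutation test). Myd88 rose relative to Ticam1, from 508 to 690 fragments per 100 of Ticam1 in the median mouse, with a difference of 0.44 (adjusted p = 0.011, exact permutation test). Without aged mice 1 and 7 the differences of Tlr1 to Tlr6 and of Tlr7 to Tlr8 were 1.04 and 0.20, with adjusted p-values of 0.071 and 0.10 in the exact permutation test, and without aged mice 1 and 2 they were 1.36 and 0.32, both with an adjusted p of 0.062.

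**Figure D4:**
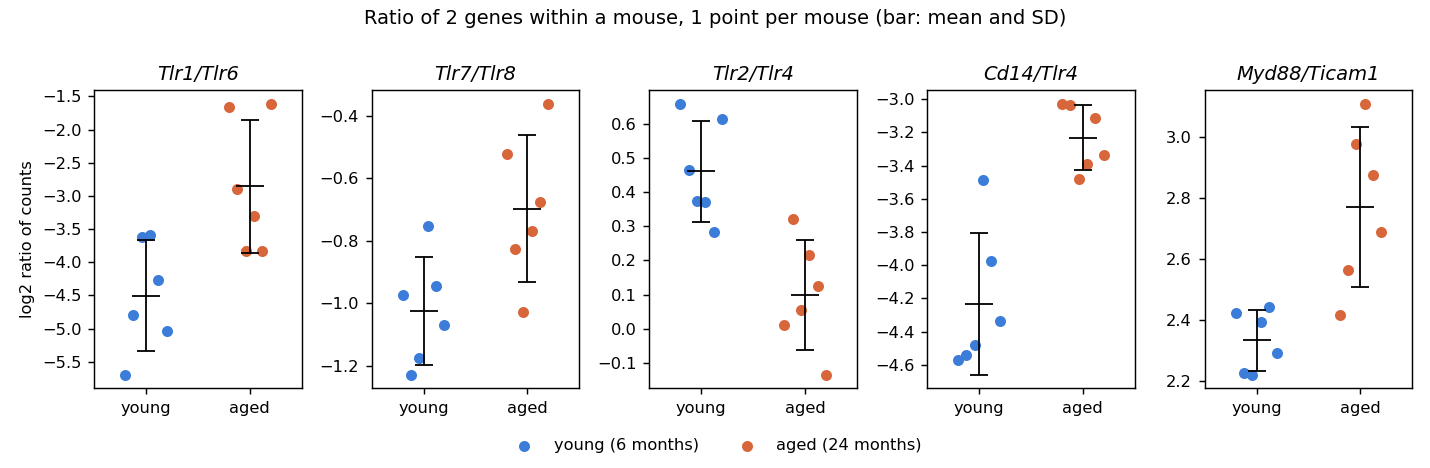
Log2 ratio of the counts of 2 genes within a mouse, with 1 point per mouse, the long bar at the mean and the caps at 1 SD (n = 6 each); each panel has its own axis. The difference of the means is 1.65 for Tlr1 to Tlr6, 0.33 for Tlr7 to Tlr8, -0.36 for Tlr2 to Tlr4, 1.0 for Cd14 to Tlr4 and 0.44 for Myd88 to Ticam1.

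Among young mice, mouse 5 had the lowest level of 7 of the 10 genes, and mouse 10 the highest of 4. Tlr2, Tlr4, Tlr6, Tlr13 and Myd88 were all lowest in young mouse 5 and next lowest in young mouse 6, the mice with the highest summed proliferation markers and, at 69370 and 73721 CPM, the lowest summed neutrophil markers. Tlr1 went the other way, with its highest young values, 1.32 and 1.09 CPM, in these 2 mice. The libraries of young mice 5 and 6 also had the largest TMM scaling factors, 1.10 and 1.08. Relative to the mean of all libraries, their log2 levels rose most with exon length, by 0.210 and 0.193 per doubling. The part of scaling and length in the low levels of these mice was not tested. Among aged mice, mouse 1 had the lowest level of 5 of the 10 genes and the highest of 1, Tlr7. The part of the cell types behind these markers in the differences was not tested.

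Resident macrophages express several of these receptors, and their markers differed between the ages. Aged mouse 5 was the aged mouse whose summed macrophage markers, at 89.2 CPM, lay within the young range of 76.5 to 95.6 CPM. In this mouse Tlr1 was at 3.51 CPM and Cd14 at 13.3 CPM, above the highest young values of 1.32 and 8.96 CPM, and Myd88 was at 223 CPM, above the highest young value of 152 CPM. Aged mouse 1, with 1130 CPM of macrophage markers, had 13.9 CPM of Cd14, near the aged mean of 13.7. Its Tlr1, at 6.69 CPM, was the second highest of the aged mice and above the aged mean of 4.18 CPM, and its Myd88, at 146 CPM, was the lowest of the aged mice. Without aged mice 1 and 2, the mice with the most macrophage markers, the log2 fold change was 2.06 for Tlr1 and 1.10 for Cd14, and edgeR called 5 of the 10 genes higher and 1 lower, beside 19.8% and 18.8% of all genes in the same fit. Without young mice 5 and 6 it called 3 higher and 2 lower, beside 14.1% and 17.9%. These pairs of mice were chosen after their marker values were seen.

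Gene length was related to the age difference in these libraries. Across the 9742 genes tested, the log2 fold change fell with exon length (Spearman's rho = -0.48, genes not being independent replicates). The exons of the 10 genes sum to 1497 bases in Cd14, the shortest, to 4014 in Tlr13, around the median of 2890 over the genes tested. Of the 5137 genes tested in this range of length, 22.4% were called higher and 15% lower. With a correction for length, Tlr1, Cd14, Myd88 and Tlr8 kept their calls, at log2 fold changes of 2.21, 0.90, 0.34 and -0.28, Tlr6 lost its call and Tlr13 was called higher at 0.41.

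The rest of the pathway was examined in 7 lists of 78 genes, all of which were in the table and 62 of which were tested. Of these, 8 were called higher and 17 lower, beside 22.4% higher and 23.0% lower of all genes tested. The 17 became 10 without aged mouse 2 and 11 with the correction for gene length, where the share of all genes called lower was 20.4% and 16.5%. The 8 became 5 without TMM factors and without young mice 5 and 6, where the share called higher was 17.3% and 14.1%. The 62 genes had a median log2 fold change of -0.06 beside 0.01 over all genes tested. Of the 5 other Toll-like receptors, 2 were tested. Tlr5, the flagellin receptor, was called lower, at 39.9 ± 4.06 CPM in aged and 48.8 ± 6.11 in young mice, with a log2 fold change of -0.29, and this call was lost in 7 of 26 alternatives. Tlr9, the receptor of CpG DNA, was not called, at 4.29 ± 3.57 CPM in aged and 3.68 ± 1.12 in young mice. Tlr3, Tlr11 and Tlr12 had at most 14 fragments in any library and were not tested.

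Of 8 other co-receptors and adaptors, 2 were called higher and 1 lower. Cd36, a scavenger receptor that assists TLR2 and TLR6, ranged from 0.752 to 43.6 CPM in aged mice with a median of 4.36, and from 0.195 to 1.12 CPM in young mice. The ages overlapped, and the log2 fold change was 4.0 with a wide SE of 1.01 (adjusted p = 0.0053, edgeR), which limma-voom did not call, at 2.61 and an adjusted p of 0.074. The highest value was that of aged mouse 1, which also had the most macrophage markers, and the next was 7.69 CPM in aged mouse 2. Without aged mouse 1 the log2 fold change of Cd36 was 2.51 (adjusted p = 0.0075, edgeR), and without aged mice 1 and 2 it was 2.07 (adjusted p = 0.023, edgeR). Lbp, the binding protein of lipopolysaccharide, was called higher by a log2 fold change of 0.20 (SE 0.06), a call lost in 4 of 26 alternatives, among them no TMM factors (0.12, adjusted p = 0.18, edgeR). Tirap, the adaptor that brings MYD88 to TLR2 and TLR4, was called lower with no overlap, at 113 to 151 CPM in aged and 152 to 172 CPM in young mice, with a log2 difference of -0.33 (SE 0.07). With the length correction this was -0.15 and no longer called. Myd88 and this bridging adaptor had opposite signs with and without that correction, Myd88 being at 0.34 with it. With the correction only Myd88 was called.

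Of 9 genes that fold and move the receptors, 4 were called higher and 2 lower. Rab7b, listed under its older name 5430435G22Rik, encodes a GTPase of late endosomes and had the largest rise, from 0.605 ± 0.238 CPM in young to 2.21 ± 0.43 in aged mice, with a log2 fold change of 1.82. Unc93b1, which carries the nucleic acid sensors to endosomes, was higher by 0.27, from 179 to 199.8 CPM in young to 201 to 246 CPM in aged mice. Hsp90b1, the chaperone gp96 that folds the receptors, was lower by 0.53, a call lost in 2 of 26 alternatives, among them without young mice 5 and 6 (-0.41, adjusted p = 0.090, edgeR). Slc15a4, a transporter of endosomes needed for TLR7 signals, was lower by 0.36 with no overlap. Cnpy3, Cnpy4 and Lrrc59 were not called, with log2 fold changes of -0.14, -0.16 and 0.18. Cnpy3 was called lower with the length correction (-0.27, adjusted p = 0.0052, edgeR) and without TMM factors (-0.23, adjusted p = 0.013, edgeR), and Lrrc59 was called higher without young mouse 10 (0.24, adjusted p = 0.044, edgeR).

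Of 19 kinases and ubiquitin ligases downstream of the adaptors, 1 was called higher and 7 lower. Traf3, a ubiquitin ligase of the interferon branch, had the largest fall, from 117 ± 17.4 CPM in young to 64.0 ± 7.11 CPM in aged mice, by -0.87 (SE 0.10) on the log2 scale and with no overlap. Ikbkg, which encodes the regulatory subunit NEMO of the IKK complex, was the gene called higher, by 0.29 (SE 0.08), and lost its call in 3 of 26 alternatives, among them no TMM factors (0.20, adjusted p = 0.052, edgeR). Of 5 interferon regulatory factors, 1 was called, Irf7, which was higher by 0.47 (adjusted p = 0.044, edgeR), a call lost in 15 of 26 alternatives. Without aged mouse 5 edgeR gave 0.24 in log2, with an adjusted p of 0.073. Of 12 tested negative regulators, 4 were called lower and 0 higher. Irak3, the kinase-dead member IRAK-M that holds back the signal, fell from 135 ± 7.09 to 112 ± 5.22 CPM, by -0.28 (SE 0.06) on the log2 scale and with no overlap.

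Genes that the receptors induce were mostly at low level. Of 18, 7 were tested and 2 were called lower, 0 higher. Ptgs2, which encodes the prostaglandin synthase COX-2, had a level of 9.46, 17.5 and 33 CPM in the lowest, median and highest aged mouse and of 50.4, 54.1 and 97.4 CPM in young mice. The ages did not overlap, and the log2 fold change was -1.62 (SE 0.26, adjusted p = 0.0003, edgeR). Ccl3, a chemokine, was lower by 1.15 on the log2 scale, which is a 2.22-fold lower level, and lost its call in 3 of 26 alternatives, among them without young mice 5 and 6 (-0.89, adjusted p = 0.055, edgeR). Il6, Il23a, Ifnb1 and Cxcl1 had 0 counts in all 12 libraries, which allows up to 0.188 to 0.643 CPM, the level of 3 counts in a library. In all, 11 of the 18 genes were too low to test.

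**Figure D5:**
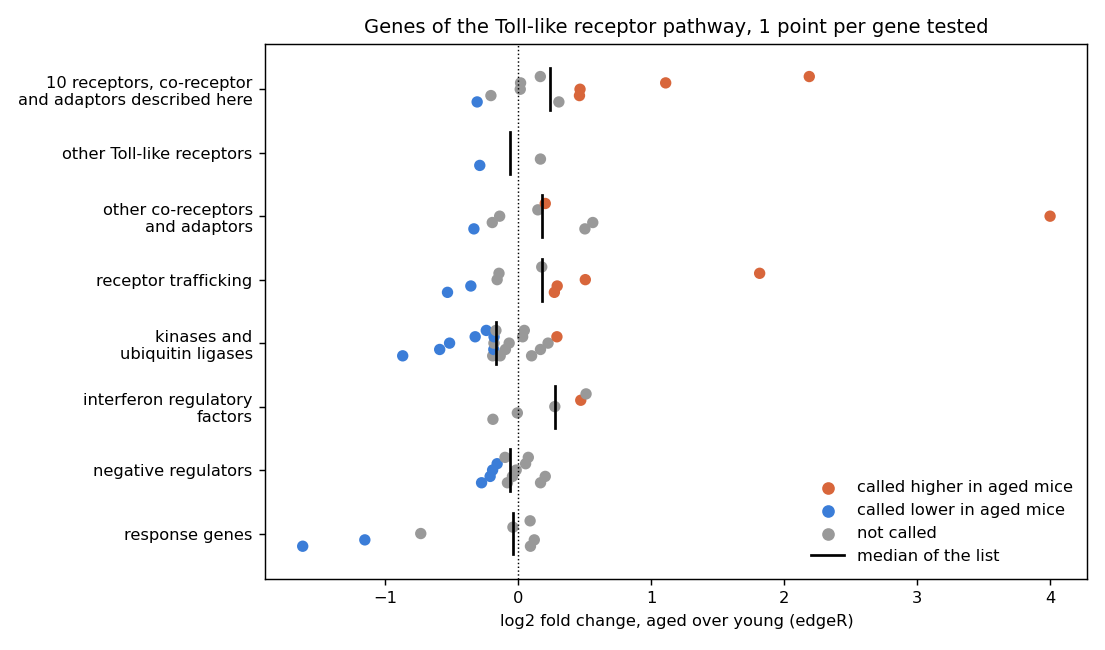
Log2 fold change, aged over young, of the 10 genes and of the 62 tested genes in 7 lists of the same pathway, with 1 point per gene, coloured by the edgeR call, and a black line at the median of each list. Of the kinases and ubiquitin ligases 7 of 19 were called lower, and the gene farthest right is Cd36 at 4.0.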

How the data were processed

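M-MDSCs from 6 young and 6 aged mice were compared, with groups taken from the sample labels. The authors deposited raw counts, made with featureCounts 2.0.0 over the exons of a UCSC annotation of mm10 from read pairs on the strand of the gene, with a mapping quality minimum of 60. The aligner is not given in the sources used here. The authors' exon length from the same table was used for levels per kb. Ly6g and genes of the mitochondrial genome were not analysed here.

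Genes were kept with filterByExpr, and ages were compared with the quasi-likelihood test of edgeR 4.0.16 in R 4.3.3 with TMM factors and Benjamini-Hochberg adjustment over all 9742 genes. CPM were scaled to the TMM-adjusted library total. An SE is the log2 fold change over the square root of F. Ratios, with 0.5 added to each count, and marker lists, as mean log2 CPM of their tested genes with a prior count of 2, were compared with exact two-sided permutation tests. The code was tested on simulated data. Alternatives used DESeq2 1.42.0, limma-voom (limma 3.58.1), other scalings and filters, thinned counts, a length correction, mice left out and a replicate block.

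The 10 genes and the lists were chosen with earlier results of these data known. Of each pathway list, the called genes that rose most, fell most or had the smallest p-value are named, with the genes not called where these were 3 or fewer. Lbp, Ly96, Unc93b1, Slc15a4 and Ccl3 were added after their values were seen. Symbols absent from the table were matched by unambiguous RefSeq synonyms. Each library was a separate mouse by the labels. The totals make counting error small for all but the lowest genes, and floors cover counting error only.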

Additional observations from a re-analysis of the deposited data

Results flagged for a closer look

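Of 54 groups of 6 mice checked for a mouse far from the others, 2 stood out, and chance alone picks about 1 group in 20. None of the levels or ratios of the 10 genes was among them. The mean log2 CPM of the T and NK cell markers was 2.11 in young mouse 10, the highest of the young mice, and 1.56 in the next, a gap of 0.748 of the range of the young mice. The mean log2 CPM of the megakaryocyte and platelet markers was 2.16 in aged mouse 6, the lowest of the aged mice, and 2.65 in the next, a gap of 0.632 of the range of the aged mice. The first list rested on 2 tested genes and the second on 1.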

How the results depend on the processing

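Tlr8, Cd14 and Myd88 kept their direction and call in all 26 alternatives and Tlr1 in the 24 in which it was tested, which leaves out the minimum of 10 counts in every mouse and the thinned counts. Tlr6 lost its call in 12 of 26, among them no TMM factors (0.38), thinned counts (0.41), the length correction (0.43) and 7 of the 12 fits that left out 1 mouse. Without TMM factors the median log2 fold change of all genes moved to -0.08. The number of the 10 genes called higher was 2 in thinned counts, beside 19.7% of all genes tested in that fit. The number called lower was 2 without TMM factors and without young mice 5 and 6, beside 28.4% and 17.9% of all genes. With 1 mouse left out it was 1 to 2, beside 19.8% to 24.0%. The pathway genes called higher were 5 without TMM factors and without young mice 5 and 6, beside 17.3% and 14.1% of all genes. Those called lower were 11 with the length correction and 10 without aged mice 1 and 2, beside 16.5% and 18.8%. With 1 mouse left out they were 10 to 17, beside 19.8% to 24.0% of all genes.

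Lbp and Ikbkg lost their calls without TMM factors (0.12 and 0.20), and Lbp, Ccl3 and Hsp90b1 without young mice 5 and 6 (0.19, -0.89 and -0.41). Genes near 0 changed sign. Tlr7 was at -0.066 without TMM factors, -0.0269 in thinned counts, -0.081 without aged mice 1 and 7, -0.043 without aged mice 1 and 2 and -0.014 without young mice 5 and 6. Ticam1 was at -0.066, -0.10 and -0.064 without TMM factors, in thinned counts and without young mice 5 and 6. With 1 mouse left out Tlr7 ranged from -0.046 to 0.066, Ticam1 from -0.019 to 0.054 and Tlr9 from -0.30 to 0.36. Tlr9 was at -0.25 in limma-voom, -0.46 without aged mice 1 and 7 and -0.69 without aged mice 1 and 2. Ly96 was at -0.40 with the length correction and -0.11 without young mice 5 and 6.

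The replicate numbers 1, 2, 5 and 6 occur at both ages, but same-numbered mice did not deviate together (correlations of -0.25 to -0.07). This gave no sign that the numbers pair the mice, though 4 correlations over all genes cannot settle it. With the replicate block on these 8 mice, 10 pathway genes were called lower, beside 18.9% of all genes. Tlr6 (0.55, adjusted p = 0.11 by edgeR), Tlr5 (-0.33), Irf7 (0.50), Lbp (0.17), Ikbkg (0.21), Ccl3 (-0.77) and Hsp90b1 (-0.57) were not called. Without the block, Lbp, Ikbkg, Ccl3 and Irf7 were not called in these 8 mice either (0.17, 0.22, -0.90 and 0.56). The paired exact test over the 4 numbers cannot reach 0.05. It gave differences of 1.505 for Tlr1 to Tlr6, 0.33 for Tlr7 to Tlr8, -0.30 for Tlr2 to Tlr4, 1.13 for Cd14 to Tlr4 and 0.43 for Myd88 to Ticam1, and of 2.09 for the macrophage, 0.47 for the neutrophil and 0.96 for the progenitor markers.

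Without aged mice 1 and 7 the differences of Tlr1 to Tlr6 and of Tlr7 to Tlr8 were 1.04 and 0.20, and without aged mice 1 and 2 they were 1.36 and 0.32, none of which passed the threshold of 0.05 on adjusted p. In thinned counts Tlr7 to Tlr8 differed by 0.35 and was no longer called. The length correction gave 0.086 for the neutrophil markers, no longer called, and 0.33 for the plasmacytoid dendritic cell markers, then called. With 1 mouse left out the differences ranged from 1.28 to 2.09 for the macrophage, 0.27 to 0.38 for the neutrophil, 0.81 to 1.03 for the progenitor, 0.22 to 0.32 for the plasmacytoid, 0.24 to 0.46 for the T and NK cell, -0.97 to -0.68 for the non-classical monocyte, -0.25 to 0.012 for the classical monocyte and -0.10 to 0.083 for the megakaryocyte markers. The cause of these changes was not tested. Leaving out 2 mice was in part chosen after seeing the data. Depth limits genes of few counts, such as Tlr1 with 2 to 13 counts per young library.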

Other observations

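Marker lists of 14 cell types or states were compared beside the 10 genes, and 12 of them had a tested gene. By exact permutation tests on the mean log2 CPM of a list, adjusted over the 12 lists, 3 lists were higher in aged mice. They were the resident macrophage markers (difference 1.76, adjusted p = 0.035, with 9 of 9 tested genes called higher by edgeR), the neutrophil markers (0.33, adjusted p = 0.035, 5 of 10) and the granulocyte-monocyte progenitor markers (0.93, adjusted p = 0.026, 3 of 4). These calls did not hold with each mouse left out in the same exact permutation test. The macrophage call was lost without young mouse 1, 5 or 9 (adjusted p = 0.069 each), and the progenitor call without the same mice (adjusted p = 0.052 each, exact permutation test). The neutrophil call was lost without aged mouse 2, 4, 5 or 6 or young mouse 1, 5 or 9 (adjusted p = 0.052 to 0.087, exact permutation test) and with the correction for gene length (adjusted p = 0.48). The other 9 lists did not pass, but those of non-classical monocytes passed without aged mouse 1 or young mouse 2 (adjusted p = 0.045 each), of plasmacytoid dendritic cells without young mouse 6 (adjusted p = 0.026) or with the length correction (adjusted p = 0.043), and of T and NK cells without young mouse 10 (adjusted p = 0.026), in the exact permutation test. The lists lower in aged mice by their mean were those of non-classical monocytes (-0.85, adjusted p = 0.073), proliferation (-0.40, adjusted p = 0.12), classical monocytes (-0.14, adjusted p = 0.62) and megakaryocytes and platelets (-0.02, adjusted p = 0.91), by the same exact permutation test. The lists higher by their mean were those of conventional dendritic cells (0.50, adjusted p = 0.41), plasmacytoid dendritic cells (0.25, adjusted p = 0.073), B cells (0.78, adjusted p = 0.17), plasma cells (0.30, adjusted p = 0.62) and T and NK cells (0.35, adjusted p = 0.12), by the same exact permutation test. Several of these lists rest on few tested genes. The plasmacytoid list rests on 2 of 7, Tcf4 and Il3ra, with log2 fold changes of -0.0057 and 0.49, while its defining markers Siglech, Cox6a2 and Klk1 had at most 2, 1 and 1 counts in any library. The T and NK cell list rests on 2 genes, and those of B cells, plasma cells, and megakaryocytes and platelets on 1 gene each. Erythroid cells and basophils and mast cells had no tested gene, with summed levels of at most 7.69 and 1.83 CPM. The relation of these lists to the levels of the 10 genes was not tested.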
